A study of Macaca mulatta with 19 samples.

Results

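Testosterone combined with a Western-style diet was compared with control treatment in luteinized granulosa cells of rhesus macaques, across every gene counted. The 10 libraries compared are the 6 labelled WSD+T and the 4 labelled Chow+C, of 19 in the series, and they were chosen by the treatment group in the labels alone. The comparison was then repeated without the 3 WSD+T libraries whose follicle held a degenerating oocyte, to state which differences stay. Chow+C animals ate standard chow and carried an implant of cholesterol (C). WSD+T animals ate the Western-style diet (WSD) and carried an implant of testosterone (T) that set the hormone 4 to 5 times above that of C. Per the labels, 10 females entered each treatment near menarche, and cells were collected after about 3.5 years, in a controlled ovulation cycle, by aspirating the follicle that had been selected naturally. Every library is the polyA RNA of 1 animal, so the p-values below cover the spread between animals. In Chow+C the oocyte of the same follicle was in metaphase I (MI) in replicates 1, 2 and 3 and in metaphase II (MII) in replicate 4. In WSD+T it was MII in replicate 1, MI in replicates 2 and 5 and degenerating in replicates 3, 4 and 6. Chow+C held 0 libraries with a degenerating oocyte, so that in this comparison oocyte class and treatment are partly mixed. The groups with 1 exposure, Chow+T (4 libraries) and WSD+C (5 libraries), entered the fit to estimate the spread and are quoted only beside single genes and cell markers.

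Granulosa cells line the follicle, nourish the oocyte and convert androgen to estradiol with aromatase, the product of CYP19A1. After the ovulatory surge of luteinizing hormone they luteinize: they take up cholesterol, turn to progesterone synthesis and remodel the matrix that holds the oocyte. Excess androgen and a fat-rich diet are both used to model features of polycystic ovary syndrome in female primates.

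Gene counts per library ranged from 28832132 to 56385679. The share of reads assigned to genes was 49.1% in Chow+C 2 and 59.6% to 67.0% in the other 9, and genes encoded in the mitochondrion took 17.9% of its gene counts, against 0.795% to 11.4%. Several results below are therefore also given without Chow+C 2. All 12 granulosa markers tested, among them FOXL2, INHA and STAR, reached 1 CPM or more (CPM being the count brought to a common library size and scaled by TMM) in each of the 10 libraries, and their summed level spanned 8641 to 15005 CPM among controls and 8881 to 14702 CPM among WSD+T libraries. Outside the 10, the library WSD+C 4, which entered the fit, held a granulosa sum of 2794 CPM. Its erythroid marker sum was 129058 CPM, against at most 3436 CPM in the controls and 2391 CPM in WSD+T. The labels name no sort of these cells. Where markers of other cells differ, fewer cells of a type and less RNA per cell cannot be told apart in these bulk samples.

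Against control, 0 of 15019 genes (0%) passed edgeR's quasi-likelihood test at an adjusted p under 0.05, and the smallest adjusted p was 0.717. Limma called 0 and DESeq2 called 3, namely FHL2 (adjusted p = 0.00154), EFCAB12 (adjusted p = 0.0252) and the unnamed gene ENSMMUG00000041144 (adjusted p = 0.0435). At an unadjusted p under 0.05 edgeR gave 1014 genes, which is 6.75% of those tested, with 460 higher in WSD+T (3.06%) and 554 lower (3.69%). All 6 WSD+T libraries lay above all 4 controls for 61 genes (0.406%) and below them for 50 (0.333%). The count of 1014 depends on single animals: it was 482 without Chow+C 2, with 292 higher and 190 lower, 661 without WSD+T 6, and 1720 without Chow+C 1. Leaving WSD+C 4 out of the fit gave 1474, with 779 higher and 695 lower. No gene below is past the adjusted threshold by edgeR, and differences are given as sizes with their error, not as established changes.

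When the 3 libraries with a degenerating oocyte were set apart, the 3 WSD+T libraries with an MI or MII oocyte again gave 0 genes past the adjusted threshold (0%; smallest edgeR adjusted p = 0.926) and 483 at an unadjusted p under 0.05 (3.22%), of which 141 were higher (0.939%) and 342 lower (2.28%). That balance depends on the method: limma gave 179 higher and 150 lower, and DESeq2 206 and 596. Of the 460 higher, 426 kept a positive log2 fold change, 34 turned negative, and 75 (16.3%) were again at an unadjusted p under 0.05. Their median log2 fold change was 1.15 with all 6 libraries, 0.46 in the MI or MII libraries and 1.45 in the degenerating ones. Of the 554 lower, all 554 kept a negative log2 fold change and 179 (32.3%) were again at an unadjusted p under 0.05. Their medians were -0.85, -0.80 and -0.86. In all, 254 of 1014 (25%) met both criteria. These counts are descriptions, because the 3 MI or MII libraries enter both comparisons and the genes were chosen by the first, and no test compared the higher with the lower genes. Without WSD+T 6, 77 of 209 higher genes and 187 of 452 lower genes met both criteria, and by limma 71 of 254 and 97 of 310. The count of 254 was 102 without Chow+C 2, 837 without Chow+C 1 and 88 without WSD+T 5.

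The direct contrast between degenerating and MI or MII libraries within WSD+T gave 0 genes past edgeR's adjusted threshold (0%; smallest adjusted p = 0.55) and 1309 with an unadjusted p below 0.05 (8.72%), 964 higher with a degenerating oocyte (6.42%) and 345 lower (2.3%). DESeq2 called 92 genes in this contrast, 71 higher and 21 lower. Without WSD+T 4 edgeR called 22, 12 higher and 10 lower. Degenerating libraries alone against control gave 0 past the adjusted threshold (0%; smallest edgeR adjusted p = 0.369) and 1435 genes with an unadjusted p below 0.05 (9.55%), of which 951 were higher (6.33%) and 484 lower (3.22%).

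The gene with the smallest p was FHL2 (ENSMMUG00000016594), a LIM-domain protein that binds integrins and acts as a coactivator of transcription. It stood at 53.7, 23.4, 14.95 and 26.9 CPM in Chow+C 1 to 4. It stood at 72.0, 96.0 and 71.6 CPM in the MI or MII libraries WSD+T 1, 2 and 5 and at 145, 124 and 95.7 CPM in the degenerating libraries WSD+T 3, 4 and 6. Every WSD+T library was above every control, with either oocyte class. The log2 fold change was 1.76 (SE 0.337, 95% CI 1.05 to 2.47, unadjusted p = 6.39e-05) with all 6 and 1.42 (SE 0.358) with the MI or MII libraries, against 2.03 in the degenerating ones. In the groups with 1 exposure FHL2 averaged 93.7 ± 21.6 CPM (SD, n = 4, Chow+T) and 76.0 ± 24.6 CPM (SD, n = 5, WSD+C). Both means lay within the range of the WSD+T libraries. Single libraries reached down to 61.4 CPM in Chow+T and to 47.5 CPM in WSD+C, the latter inside the control range. Without Chow+C 1, the highest control, its log2 fold change was 2.21 and its edgeR adjusted p = 0.0539.

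SDC4 (ENSMMUG00000048424), syndecan 4, a heparan sulfate proteoglycan of focal adhesions, stood at 19.7, 14.8, 15.1 and 15.3 CPM in Chow+C 1 to 4. The MI or MII libraries WSD+T 1, 2 and 5 were at 27.7, 35.1 and 30.7 CPM, and the degenerating libraries WSD+T 3, 4 and 6 at 40.5, 18.8 and 51.1 CPM. WSD+T 4 thus lay within the range of the controls, and all 5 other WSD+T libraries lay above them. The log2 fold change of SDC4 was 1.07 (SE 0.243, unadjusted p = 3.73e-04) with all 6 libraries and 0.94 (SE 0.279) without the degenerating ones. LIMS1, an adaptor of integrin signalling in the same list of 25 syndecan and integrin adhesion genes, had a log2 fold change of 0.48 with all 6 and 0.56 with the MI or MII libraries. With FHL2 these were the 3 members of the list at an unadjusted p under 0.05, in both comparisons, where 3.06% and 0.939% of all genes were higher. The lists were chosen with earlier results of these data known, so such counts are descriptions and not a test. The list's median log2 fold change was 0.13 with all 6 and 0.14 with the MI or MII libraries, beside -0.00 and -0.05 over all genes tested.

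Other genes higher in WSD+T held their size to different degrees once the degenerating libraries were set apart. MLF1, a protein first described at a leukaemia translocation, had a log2 fold change of 1.45 (SE 0.455) with all 6 and 1.44 with the MI or MII libraries; its controls lay between 1.56 and 6.37 CPM, WSD+T 6 within that range at 6.16 CPM, and the other WSD+T libraries between 8.40 and 15.9 CPM. SUSD4, a complement inhibitor, lay at 2.63 CPM or more in every WSD+T library and at 2.57 CPM or less in every control, with log2 fold changes of 1.85 and 1.53. RNF115, a ubiquitin ligase, was at 14.2 to 17.0 CPM in the controls and 18.99 to 27.2 CPM in WSD+T, again without overlap, with log2 fold changes of 0.53 and 0.42. ACTR10, a subunit of dynactin, did not overlap either (30.6 to 40.7 against 44.4 to 55.8 CPM; 0.37 and 0.31). OSBPL3, an oxysterol-binding protein, had 2.58 and 1.92, with WSD+T 1 at 1.51 CPM inside the control range. CD83, a membrane protein of activated immune cells, had 1.63 and 1.04.

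For HEBP1, PEBP1, CFL1 and TRAPPC6A the difference was smaller without the degenerating libraries. HEBP1, a heme-binding protein, stood at 7.48 to 11.5 CPM in the controls, at 12.9 to 15.7 CPM in 5 WSD+T libraries and at 65.1 CPM in WSD+T 6. No WSD+T library overlapped the controls, but the log2 fold change of 1.33 was 0.64 in the MI or MII libraries and 0.67 without WSD+T 6. PEBP1, an inhibitor of RAF kinase, gave 0.68 and 0.43, CFL1, the actin-severing cofilin, 0.63 and 0.42, and TRAPPC6A, of the vesicle-tethering TRAPP complex, 1.03 and 0.56. The unnamed gene ENSMMUG00000041144 was at 14.8, 3.16, 5.04 and 5.75 CPM in Chow+C 1 to 4 and between 29.7 and 81.4 CPM in WSD+T, with log2 fold changes of 2.92 (SE 0.759) and 2.77. It did not overlap with either oocyte class.

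**Figure D1:**
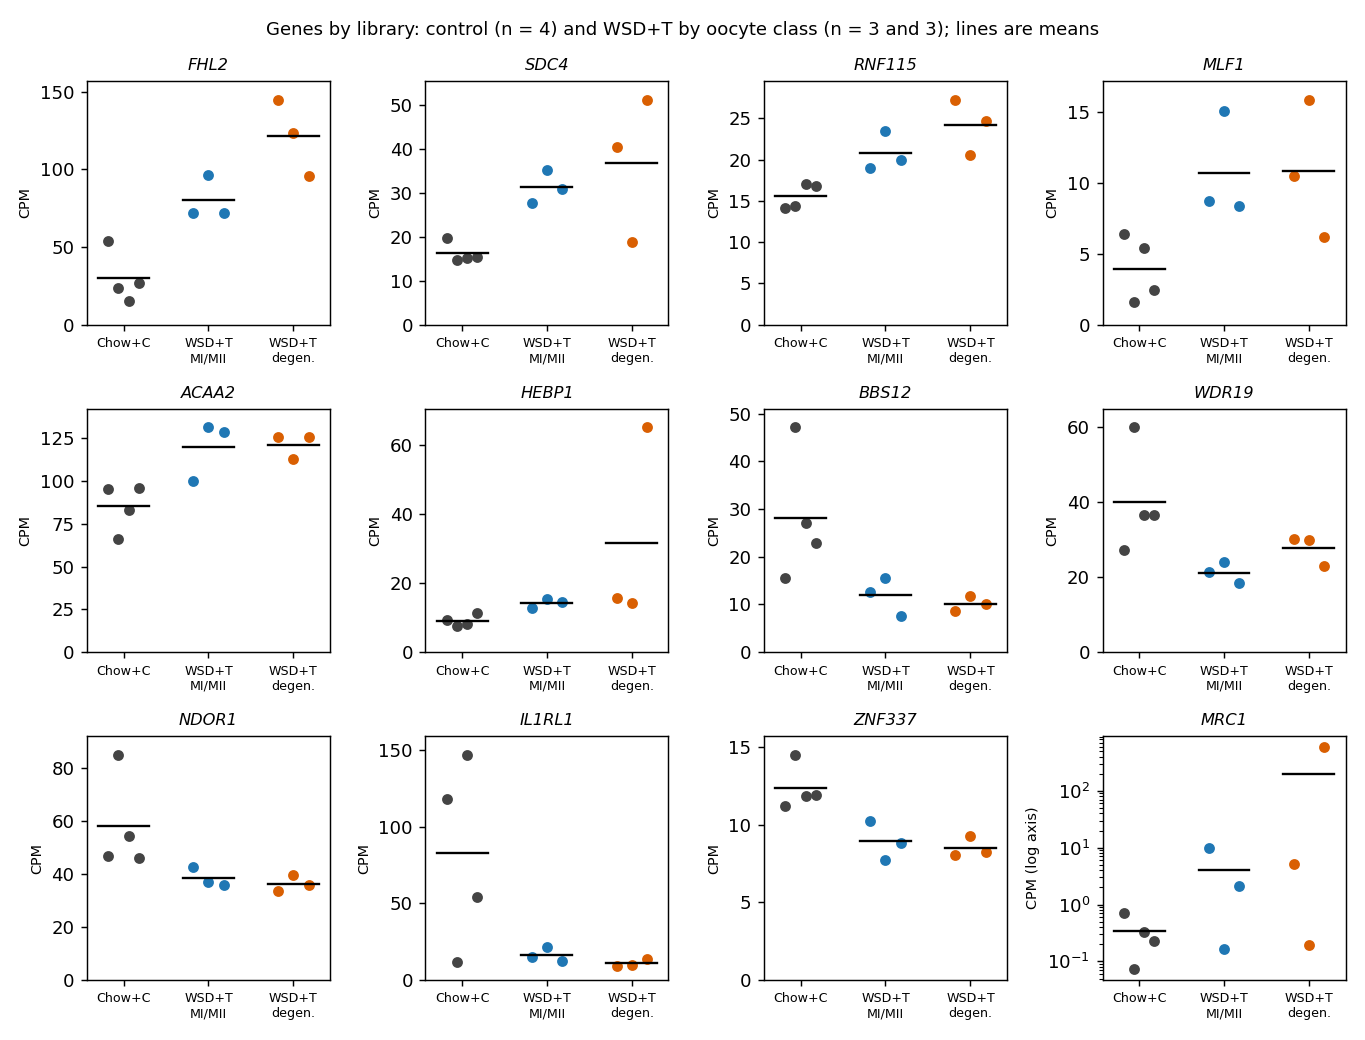
Level of 12 genes in each library, in TMM-scaled CPM (the MRC1 axis is logarithmic, the others start at 0), with 1 point per animal and a line at the mean of Chow+C (n = 4), WSD+T with an MI or MII oocyte (n = 3) and WSD+T with a degenerating oocyte (n = 3). FHL2 is at 71.6 CPM or more in every WSD+T library and at 53.7 CPM or less in every control, whereas MRC1 is high mainly in WSD+T 6, at 582 CPM.

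Genes of the cilium, an antenna-like organelle, made up several of the 12 lower genes of smallest p. Whether they act in the single primary cilium that granulosa cells carry was not tested. Of 23 cilium assembly genes tested, 17 had negative log2 fold changes, none was higher and 5 were lower with an unadjusted p below 0.05 (over all genes, 3.69% were lower), and the median was -0.24. In the MI or MII libraries 19 were negative, 6 were lower at that threshold (2.28% over all genes) and the median was -0.45, against -0.13 in the degenerating libraries. As this list too was chosen with earlier results of these data known, its counts are descriptions. BBS12 (ENSMMUG00000030171), part of the chaperonin-like complex that assembles the BBSome, stood at 15.6, 47.1, 27.0 and 22.9 CPM in Chow+C 1 to 4, at 12.7, 15.5 and 7.66 CPM in WSD+T 1, 2 and 5 and at 8.68, 11.7 and 10.0 CPM in WSD+T 3, 4 and 6. All WSD+T libraries were below all controls, by a narrow margin between WSD+T 2 and Chow+C 1. Its log2 fold change was -1.35 (SE 0.305, unadjusted p = 3.47e-04), -1.23 without the degenerating libraries and -0.98 without Chow+C 2.

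WDR19, a subunit of the intraflagellar transport complex that carries cargo back to the cell body, was at 27.2, 59.9, 36.5 and 36.4 CPM in Chow+C 1 to 4. It was at 21.4, 23.9 and 18.4 CPM in the MI or MII libraries and at 30.2, 29.8 and 22.8 CPM in the degenerating ones. The MI or MII libraries were below all controls and 2 of the degenerating ones were not. Its log2 fold change was -0.71 (SE 0.198) with all 6 and -0.91 (SE 0.233) with the MI or MII libraries. IFT172, of the anterograde transport complex, gave -1.03 and -1.14. DNAAF3, a dynein assembly factor, and EFCAB12 rest on Chow+C 2, where they stood at 51.8 and 17.2 CPM. The other controls held 5.28 to 10.8 CPM of DNAAF3 and 0.267 to 2.60 CPM of EFCAB12. Their log2 fold changes of -2.05 and -3.92 were -0.72 and -1.80 without that library. The median of the whole list was -0.07 without Chow+C 2, and -0.32 when Chow+C 2 and the 3 degenerating libraries were both left out. The part that the low share of genic reads in Chow+C 2 has in this list was not tested.

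A pair of cytokine receptors was lower as well. The cytokine and NF-kB list, which holds IL1RL1, did not share that direction, with 13 of 18 positive and a median of 0.41. At an unadjusted p under 0.05, 2 members were higher and 2 lower, where 3.06% and 3.69% of all genes were. In the MI or MII libraries 0 were higher and 2 lower, where 0.939% and 2.28% of all genes were. IL1RL1 (ENSMMUG00000009238), the receptor of interleukin 33, was at 118, 11.9, 147 and 54.3 CPM in Chow+C 1 to 4. It was at 15.1, 21.6 and 12.1 CPM in WSD+T 1, 2 and 5 and at 9.13, 9.59 and 13.7 CPM in WSD+T 3, 4 and 6. Chow+C 2 lay among the WSD+T libraries and the 3 other controls lay far above them. The log2 fold change was -2.61 (SE 0.713, unadjusted p = 0.00183), -2.35 in the MI or MII libraries and -2.97 without Chow+C 2. IL18R1, a subunit of the interleukin 18 receptor, gave -1.36 in both comparisons, with controls at 2.68 to 9.08 CPM and WSD+T at 1.10 to 2.73 CPM. In WSD+C IL1RL1 averaged 57.2 ± 46.3 CPM (SD, n = 5) and IL18R1 7.27 ± 3.10 CPM (SD, n = 5), and in Chow+T they averaged 31.1 ± 26.1 and 4.22 ± 2.13 CPM (SD, n = 4 each). The comparisons share these controls, and no difference between exposures was tested here.

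PRG4, the lubricant proteoglycan lubricin, was at 19.5, 7.03, 18.8 and 4.00 CPM in Chow+C 1 to 4 and between 1.61 and 6.59 CPM in WSD+T, with a median of 3.47 CPM. Chow+C 4 lay among the WSD+T libraries. The log2 fold change was -1.76 (SE 0.478) with all 6 and -2.11 (SE 0.611) with the MI or MII libraries. NDOR1, an electron donor for iron-sulfur cluster assembly, was lower without overlap, at 46.0 to 84.8 CPM against 33.4 to 42.7 CPM, with log2 fold changes of -0.64 and -0.59. The zinc finger genes ZNF337 (-0.51 and -0.47) and ZNF197 (-0.56 and -0.42) did not overlap either, and ZNF343 (-0.85 and -0.98) overlapped, with WSD+T 3 at 11.1 CPM above the lowest control at 9.71 CPM. MTMR11 (-1.58 and -1.37), TARBP2, a partner of Dicer (-0.78 and -0.72), and NFXL1 (-0.59 and -0.60) completed the 12 lower genes of smallest p. Each of the 12 lower genes kept its direction in the MI or MII libraries and in every alternative tried. They were chosen as lower in the main fit, and the alternatives share its libraries, so this is a description. All 554 lower genes likewise kept their direction in the MI or MII libraries.

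Several metabolic lists had mostly positive values with and without the degenerating libraries. All 25 nuclear genes of oxidative phosphorylation tested had positive log2 fold changes, with a median of 0.33. In the MI or MII libraries 24 of 25 were positive with a median of 0.35, and in the degenerating libraries 25 of 25 with a median of 0.27. Over all genes tested 49.9% were positive with all 6 libraries and 45.6% with the MI or MII libraries. The groups overlapped in the mean log2 CPM of the list, with Chow+C 1 at 6.62 and Chow+C 4 at 6.50 against 6.48 to 6.82 in WSD+T. Only 2 members were higher at an unadjusted p under 0.05, where 3.06% of all genes were. NDUFA10, a subunit of complex I, was at 62.2, 45.6, 55.0 and 60.1 CPM in Chow+C 1 to 4 and 60.2 to 83.6 CPM in WSD+T, with a log2 fold change of 0.35 (SE 0.143) and of 0.34 with the MI or MII libraries. COX6C, of complex IV, gave 0.39 and 0.35. Chow+C 2 was the lowest library for both. Without it the median of the list was 0.17, and it was 0.20 when the degenerating libraries were left out too.

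Genes of fatty acid oxidation, which passes electrons to the respiratory chain, were positive in 18 of 20 cases, with a median of 0.37, and in 16 of 20 with a median of 0.27 in the MI or MII libraries. With an unadjusted p below 0.05, 4 stood higher and 1 lower, where 3.06% and 3.69% of all genes did. In the MI or MII libraries 1 was higher and 1 lower, where the shares of all genes were 0.939% and 2.28%. ACAA2, the thiolase of the last step, was at 95.5, 66.1, 83.2 and 95.7 CPM in Chow+C 1 to 4, at 99.9, 131 and 129 CPM in WSD+T 1, 2 and 5 and at 125, 113 and 126 CPM in WSD+T 3, 4 and 6. Every WSD+T library was above every control. Its log2 fold change was 0.50 (SE 0.193) with all 6 and also 0.50 without the degenerating libraries. DECR1, which handles unsaturated fatty acids, did not overlap either (63.2 to 82.7 against 87.3 to 113 CPM; 0.49 and 0.39). SLC25A20, the carnitine carrier, gave 0.66 and 0.52. The lower member was PPARGC1A, a coactivator that drives mitochondrial biogenesis. It was at 1.68, 4.91, 3.76 and 1.56 CPM in Chow+C 1 to 4 and at 0.839, 0.583 and 0.945 CPM in the MI or MII libraries, below all controls. The degenerating libraries held 2.60, 1.17 and 1.64 CPM, of which 1.17 CPM was below the control range, and its log2 fold changes were -1.19 and -1.91. CPT1A, the rate-limiting enzyme of fatty acid entry into the mitochondrion, was at 279, 42.4 and 149 CPM in WSD+T 3, 4 and 6, at 27.4 to 33.2 CPM in the MI or MII libraries, at 126 CPM in Chow+C 2 and at 16.5 to 34.5 CPM in the other controls. Its log2 fold change was 0.82 with all 6 and -0.79 with the MI or MII libraries, and the unadjusted p between the oocyte classes was 0.00268. The list's median was 0.41 without Chow+C 2 and 0.22 without that library and the degenerating ones.

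**Figure D2:**
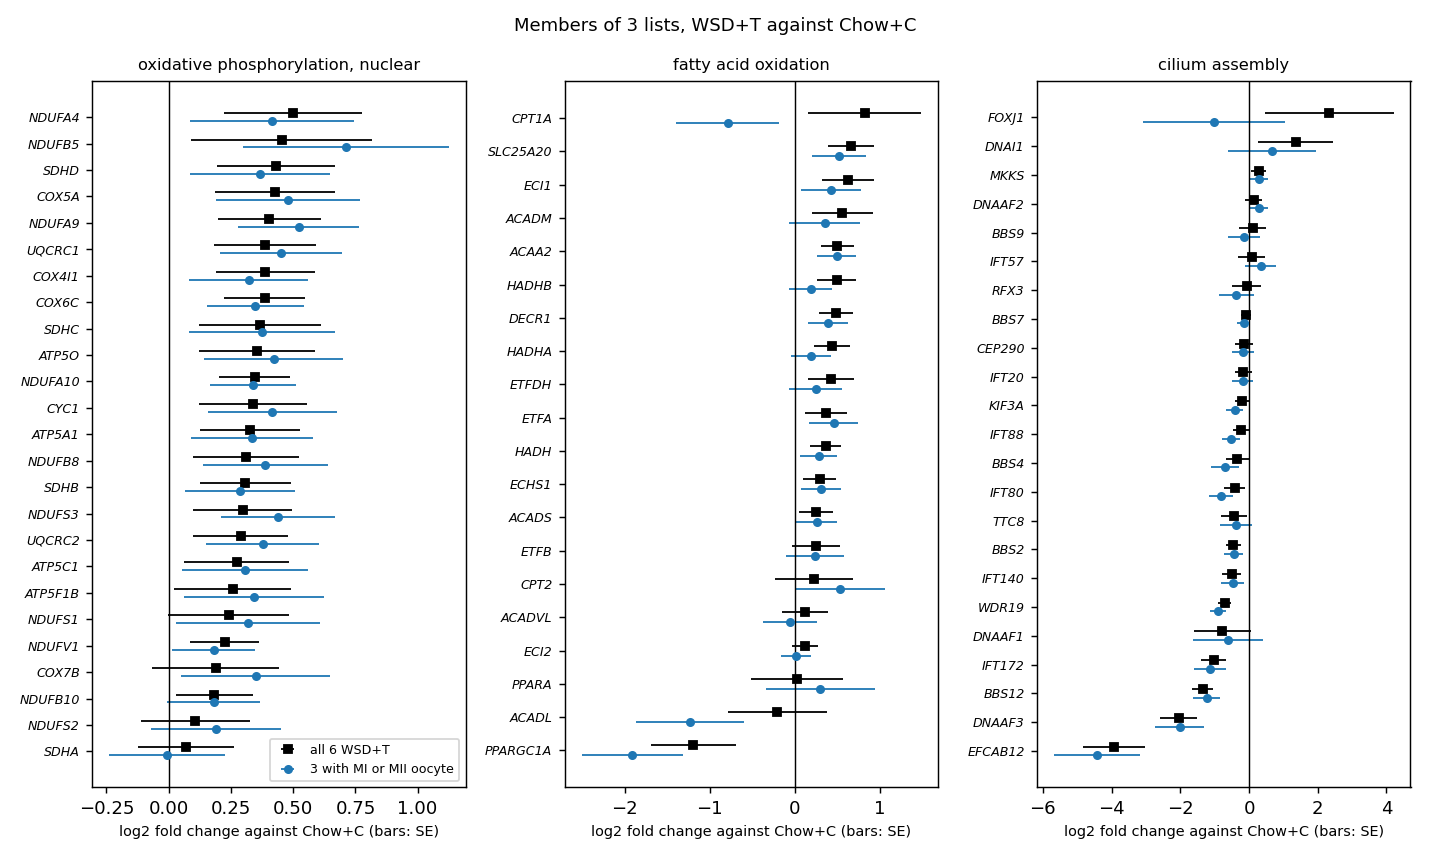
Fitted log2 fold change against Chow+C of each tested member of the lists for nuclear oxidative phosphorylation, fatty acid oxidation and cilium assembly, with SE bars, for all 6 WSD+T libraries (black squares) and for the 3 with an MI or MII oocyte (blue circles). The members of the first list lie to the right of 0, except SDHA at -0.0050 in the MI or MII libraries, and EFCAB12 (-3.92) and DNAAF3 (-2.05) stand farthest to the left in the last.

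Genes of oxidative stress defence had a median of 0.27 with 24 of 27 positive, and of 0.23 with 22 positive in the MI or MII libraries. PRDX1, a peroxiredoxin that removes hydrogen peroxide, gave 0.63 (SE 0.236) and 0.71, with Chow+C 1 at 235 CPM inside the WSD+T range of 219.7 to 281 CPM and the other controls at 156 CPM or less. SOD3, the extracellular superoxide dismutase, was lower without overlap (1.65 to 8.88 against 0.469 to 1.59 CPM), with log2 fold changes of -1.67 and -1.64. CAT, catalase, gave 0.66 with all 6 and 0.19 without the degenerating libraries. Cholesterol synthesis genes were positive in 18 of 21 cases, with a median of 0.22, and in 16 of 21 with a median of 0.31 in the MI or MII libraries. The phosphomevalonate kinase gene PMVK (0.50 and 0.43) was the 1 member of 21 at an unadjusted p under 0.05 with all 6 libraries, where 3.06% of all genes were higher. In the MI or MII libraries 0 members met that threshold (3.22% over all genes). That list's median was 0.09 without Chow+C 2 and 0.06 without Chow+C 4. Apoptosis genes had a median of 0.22 (21 of 23 positive) and of 0.18 (16 of 23).

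Several lists were higher with all 6 libraries and near 0 without the degenerating ones. The lysosome list had 22 of 24 members positive and a median of 0.38, but 13 of 24 and 0.04 in the MI or MII libraries and 23 of 24 and 0.60 in the degenerating ones. Between degenerating and MI or MII libraries of WSD+T, 10 of its members stood higher and 0 lower with an unadjusted p below 0.05, where 6.42% of all genes were higher. The median was 0.10 without WSD+T 6. CTSS, a lysosomal protease of antigen-presenting cells, stood at 1.08 to 6.71 CPM in the controls and at 2.09 to 3.76 CPM in the MI or MII libraries. It was at 27.4, 4.61 and 833 CPM in WSD+T 3, 4 and 6, so that the difference lies in replicates 3 and 6. Immediate-early genes had medians of 0.39 and 0.07, cytokine and NF-kB genes 0.41 and 0.02, prostaglandin genes 0.47 and 0.14, genes of cholesterol uptake, storage and efflux 0.27 and 0.08, and ovulatory response genes 0.22 and -0.02. The degenerating libraries were not alike in these lists. The mean log2 CPM of immediate-early genes was 7.55, 7.51 and 6.29 in WSD+T 3, 4 and 6. The MI library WSD+T 2 was at 7.20 and Chow+C 4 at 7.08. For cholesterol uptake, storage and efflux, WSD+T 3, 4 and 6 were at 6.47, 6.55 and 7.53. The MI or MII libraries were at 6.54 to 6.75. NPC2, which exports cholesterol from lysosomes, gave 1.07 and 0.37, with 249 CPM in WSD+T 6 and 36.7 to 60.6 CPM in the other WSD+T libraries. APOE, a cholesterol carrier, held more of its size, at 0.85 (SE 0.395) and 0.69. In the immediate-early list MAFF, a small bZIP factor, and IER3, a stress-induced survival factor, each lay above all controls in all 6 WSD+T libraries. MAFF gave 0.84 and 0.38, and IER3 1.29 and 0.87, with controls of 9.16 to 10.8 CPM and WSD+T of 12.7 to 40.6 CPM.

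**Figure D3:**
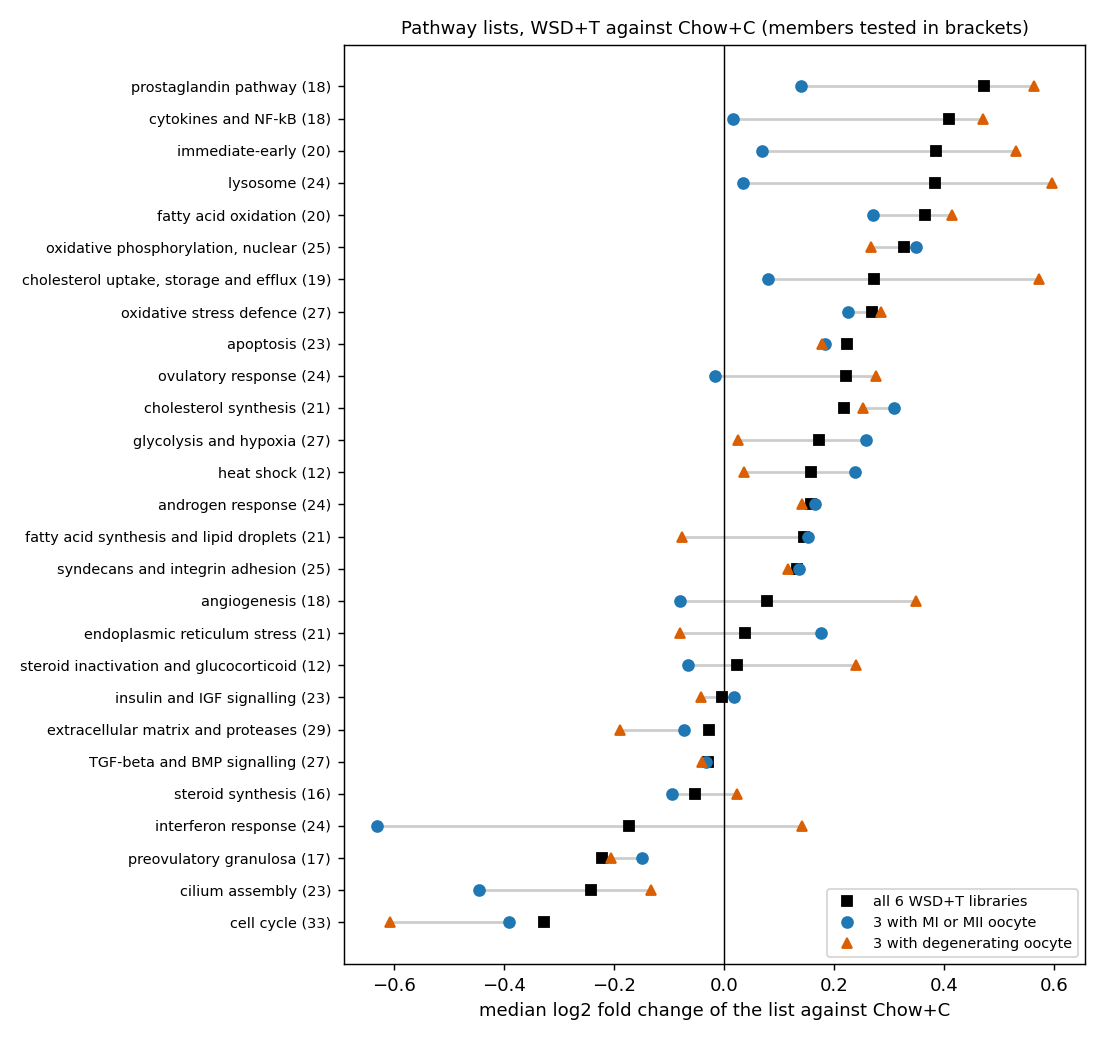
Median fitted log2 fold change of the tested members of each pathway list against Chow+C, with the number of members in parentheses, for all 6 WSD+T libraries (black squares), the 3 with an MI or MII oocyte (blue) and the 3 with a degenerating oocyte (orange). Oxidative phosphorylation keeps its median (0.33, 0.35 and 0.27), and the lysosome list spreads from 0.04 to 0.60.

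Markers of white blood cells differed alongside. All 13 macrophage markers tested were positive, and the median log2 fold change was 5.38. At an unadjusted p under 0.05, 12 were higher, where 3.06% of all genes were. In the MI or MII libraries the median was 0.66 and 0 members met that threshold (3.22% over all genes), and in the degenerating libraries the median was 6.35. The summed macrophage level was 14.8 to 23.0 CPM in the controls and 12.6, 27.3 and 41.0 CPM in the MI or MII libraries. In the degenerating libraries WSD+T 3, 4 and 6 it was 88.0, 18.9 and 2860 CPM. MRC1, the mannose receptor of tissue macrophages, was at 0.720, 0.0744, 0.335 and 0.230 CPM in Chow+C 1 to 4 and at 9.93, 0.163, 2.12, 5.14, 0.192 and 582 CPM in WSD+T 1, 2, 5, 3, 4 and 6. Its groups overlapped in WSD+T 2 and 4. The monocyte receptor CD14 was at 3.04 to 5.36 CPM in the controls, 4.18 to 6.45 CPM in the MI or MII libraries and 115 CPM in WSD+T 6. Without WSD+T 6 the median of the list was 1.54. Up to 3 of the 13 markers had 0 counts in a control, and VSIG4, found on resident macrophages, had 0 in Chow+C 2 and Chow+C 4, so that the fitted sizes of such genes depend on the prior count.

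The common leukocyte list behaved alike in number: 10 of 10 positive with a median of 2.93, but 3 of 10 and -0.08 in the MI or MII libraries and 0.82 without WSD+T 6. Its summed level was 17.4 to 53.1 CPM in the controls, 29.0 to 39.1 CPM in the MI or MII libraries, and 193, 35.5 and 1763 CPM in WSD+T 3, 4 and 6. PTPRC (CD45) was at 0.798 to 10.6 CPM in the controls and 37.8 and 133 CPM in WSD+T 3 and 6, the other WSD+T libraries lying within the control range. Neutrophil markers had medians of 1.54 and -0.51, lymphocyte markers 0.89 and -1.42, and endothelium markers 0.46 and -0.82. The 3 libraries with a degenerating oocyte were thus unlike among themselves: WSD+T 4 lay within the control range in the macrophage and leukocyte sums, and WSD+T 6 stood highest. Adding the leukocyte score to the model, the median was 0.28 for the lysosome list, 0.17 for cytokines and NF-kB, 0.45 for prostaglandin genes, 0.32 for immediate-early genes and 0.25 for cholesterol uptake, storage and efflux. In the same model cholesterol synthesis had a median of 0.58, fatty acid oxidation of 0.46 and oxidative phosphorylation of 0.41. That model held WSD+C 4, the library with the highest leukocyte score of the series (6.90). Its cholesterol synthesis score was 5.17, against 6.83 or more in the other libraries. How far the medians of this model rest on WSD+C 4 was not tested, because the covariate was not fitted without it.

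**Figure D4:**
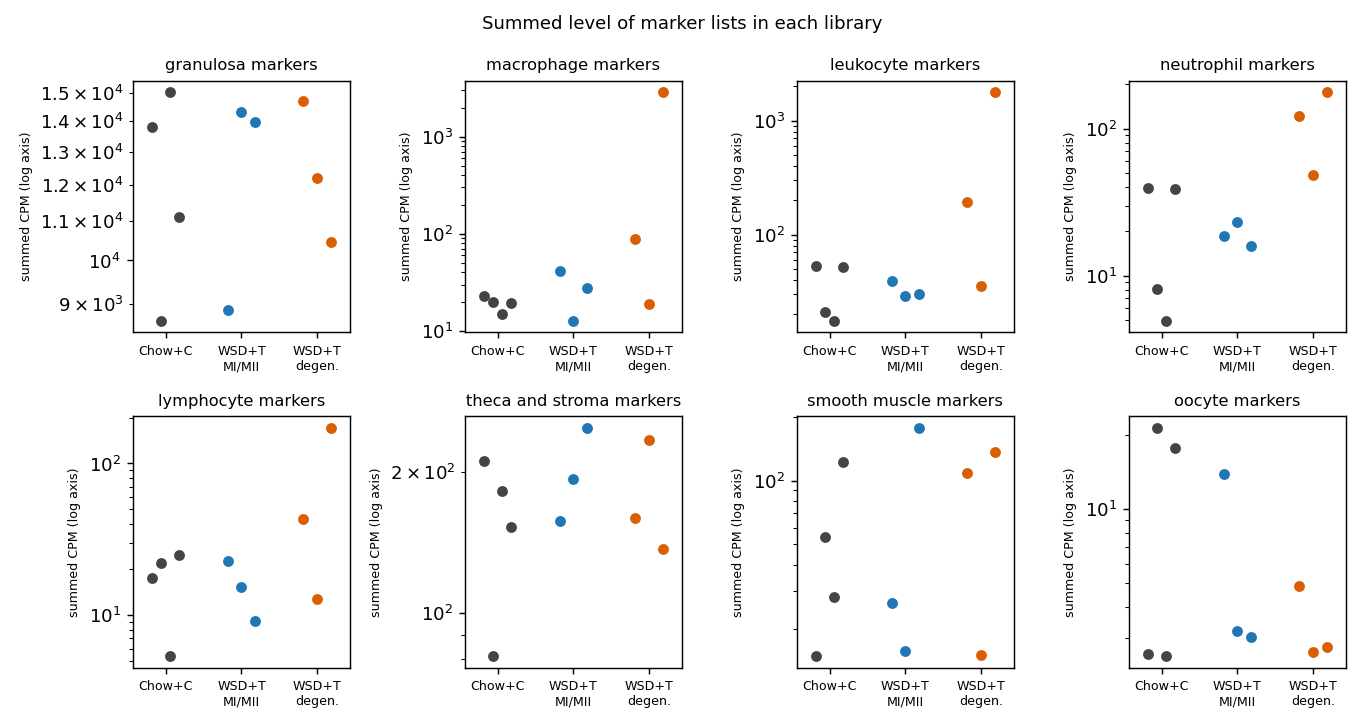
Summed TMM-scaled CPM of the marker lists in each library on a logarithmic axis, 1 point per animal, with the groups as in the plot of single genes. The macrophage sum is between 12.6 and 88.0 CPM in 9 libraries and 2860 CPM in WSD+T 6, while the granulosa sum is between 8641 and 15005 CPM in all 10.

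Some genes differed from control mainly in the WSD+T libraries with an MI or MII oocyte. HSD17B2, which inactivates estradiol and testosterone by oxidation, was at 0.747, 0.0744, 0.618 and 0.897 CPM in Chow+C 1 to 4 and at 6.86, 7.70 and 10.6 CPM in WSD+T 1, 2 and 5. The degenerating libraries WSD+T 3, 4 and 6 held 0.137, 2.00 and 0.0264 CPM. The 3 MI or MII libraries were above every other one, and the log2 fold change was 3.83 (SE 1.27, unadjusted p = 0.00799) there and 2.95 with all 6. The difference between the oocyte classes of WSD+T had an unadjusted p = 0.0225. CHST11, a chondroitin sulfotransferase, gave 2.21 with the MI or MII libraries (18.1 to 29.8 against 1.53 to 10.46 CPM) and 1.70 with all 6. UTP11L, of ribosome biogenesis, gave 0.82 and 0.63, and SLC36A1, a lysosomal amino acid transporter, 1.498 and 1.13. CCND2, the cyclin that follicle-stimulating hormone induces in granulosa cells, gave 0.80 with the MI or MII libraries (29.2, 41.9 and 34.2 against 13.9 to 26.0 CPM) and 0.38 with all 6.

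Lower genes of the same kind were ZNF333 (-0.81, and -0.54 with all 6) and KIAA0556, a protein of the cilium base (-0.69 and -0.40). MGAT5B, a glycosyltransferase (-1.97 and -1.36), differed from them, being low in WSD+T 3 and 4 too (2.01 and 2.02 CPM). It was at 1.51 to 1.70 CPM in the MI or MII libraries and 3.58 to 12.1 CPM in the controls. Only WSD+T 6, at 5.79 CPM, lay in the control range, and without it MGAT5B gave -1.82. Without Chow+C 2, MGAT5B gave -0.81 and ZNF333 -0.37 with the other WSD+T and control libraries. KIAA0556 stood at 12.6, 12.6 and 13.3 CPM in the MI or MII libraries, at 16.9, 16.8 and 21.7 CPM in the degenerating ones and at 15.5 to 27.6 CPM in the controls. The MI or MII libraries lay below the others without overlap. Over all genes tested, 749 (4.99%) had all 3 MI or MII libraries above or below all 4 controls. EDN2, endothelin 2, a contractile peptide made by granulosa cells at ovulation, went the other way between classes. It was at 161, 0.519 and 152 CPM in WSD+T 3, 4 and 6, at 0.327 to 0.766 CPM in the MI or MII libraries, at 23.2 CPM in Chow+C 2 and at 0.232 to 0.391 CPM in the other controls. Its log2 fold change was 3.13 with all 6 and -3.58 with the MI or MII libraries, where Chow+C 2 is the 1 control above them.

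Steroidogenic genes showed no difference that exceeded the spread between animals. STAR, which moves cholesterol into the mitochondrion, was at 5809, 1888, 4779 and 1001 CPM in Chow+C 1 to 4 and between 2323 and 5019 CPM in WSD+T (median 2513 CPM). The control range enclosed the WSD+T range. The log2 fold change was -0.06 (95% CI -1.48 to 1.36), an interval that leaves room for large changes in either direction. The intervals of CYP11A1, the side-chain cleavage enzyme (-1.47 to 1.15), HSD3B2, which makes progesterone (-1.45 to 2.64), CYP19A1 (-1.999 to 1.09), the gonadotropin receptors LHCGR (-1.82 to 1.26) and FSHR (-1.96 to 1.08), and PGR, the progesterone receptor (-1.50 to 0.42), also held 0. The median of 16 steroid synthesis genes was -0.05 (6 positive) with all 6 and -0.09 (4 positive) with the MI or MII libraries. The androgen response list, known mainly from prostate cells, had 17 of 24 positive and 0 at an unadjusted p under 0.05, where 6.75% of all genes were. Its median was 0.16, and 0.17 with 16 positive in the MI or MII libraries.

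Cell cycle genes had a median of -0.33 (8 of 33 positive), of -0.39 in the MI or MII libraries and of -0.61 in the degenerating ones, with 0 higher and 2 lower by an unadjusted p below 0.05, a share near the 3.69% of all genes. The 2 were the mitotic kinase PLK1 (-0.55 and -0.39) and cyclin E1, CCNE1 (-0.72 and -0.56). The median was 0.33 without Chow+C 4, the MII control. Interferon response genes had medians of -0.17 and -0.63, and 0.43 without Chow+C 4; their member of smallest p, STAT2 (-0.74), was at 398 CPM in Chow+C 2 and gave -0.10 without it. Glycolysis and hypoxia genes had 0.17 and 0.26, led by the glucose transporter SLC2A3 (1.16 and 0.74). Heat shock genes had 0.16 and 0.24, and their member BAG3, a cochaperone, did not overlap (33.6 to 49.5 against 50.2 to 67.8 CPM; 0.49 and 0.41). Endoplasmic reticulum stress genes had 0.04 and 0.18, led by the kinase EIF2AK3 (-0.20). Fatty acid synthesis and lipid droplet genes had 0.15 in both, with CIDEB (-0.43) of smallest p.

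The remaining lists are given by their medians with all 6 libraries and with the MI or MII libraries. They were 0.02 and -0.06 for steroid inactivation and glucocorticoid genes, -0.22 and -0.15 for preovulatory granulosa genes, -0.21 and -0.09 for granulosa markers, -0.03 and -0.07 for extracellular matrix and proteases, -0.00 and 0.02 for insulin and IGF signalling, -0.03 and -0.03 for TGF-beta and BMP signalling, and 0.08 and -0.08 for angiogenesis. The members of smallest p in lists not yet exemplified were SCP2 (0.45 and 0.27), AMHR2 (-0.63 and -0.91), ACVR2B (-0.51 and -0.45), FOXO1 (-0.31 and -0.65), TRIB1 (1.13 and 0.34), TBXAS1, thromboxane synthase (4.7996 and 0.49), and NRP2, a semaphorin receptor (4.71 and -0.04). Among markers of other cells the medians were 0.07 and -0.84 for erythroid cells, -0.14 and -0.97 for platelets, 0.02 and -0.13 for theca and stroma, 0.78 and 0.48 for smooth muscle, -0.16 and -1.37 for surface epithelium and -0.65 and -0.21 for oocytes. Among the members of smallest p were TUBB1 (0.35 and 0.44), DCN (1.27 and 1.72), CNN1 (2.46 and 1.25), UPK3B (-2.03 and -1.84) and NOBOX (-3.06 and -3.45), and among the markers of white blood cells and endothelium CD53 (3.34 and -0.29), CD4 (5.85 and 0.48), LCN2 (1.18 and 1.35) and PECAM1 (3.29 and -0.60).

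Genes encoded in the mitochondrion could not be compared between the groups. MT-CO3 was at 5.09, 10.8 and 4.92 CPM in Chow+C 1, Chow+C 3 and WSD+T 2, and between 7574 and 29899 CPM in the other 7 libraries. COX1 (1.79, 3.76 and 2.61 CPM) and MT-ATP6 (1.07, 1.90 and 1.31 CPM) were as low in the same 3 libraries, and the other 7 held at least 2866 CPM of COX1 and 1393 CPM of MT-ATP6. MT-CO2 lay between 3111 and 30680 CPM and MT-CYB between 3927 and 43324 CPM over all 10. The median of the list was 0.08 with all 6 WSD+T libraries and -0.27 with the MI or MII libraries, and it is not read as a difference. With the mitochondrially encoded genes left out, the count of genes at an unadjusted p under 0.05 was 1004.

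**Figure D5:**
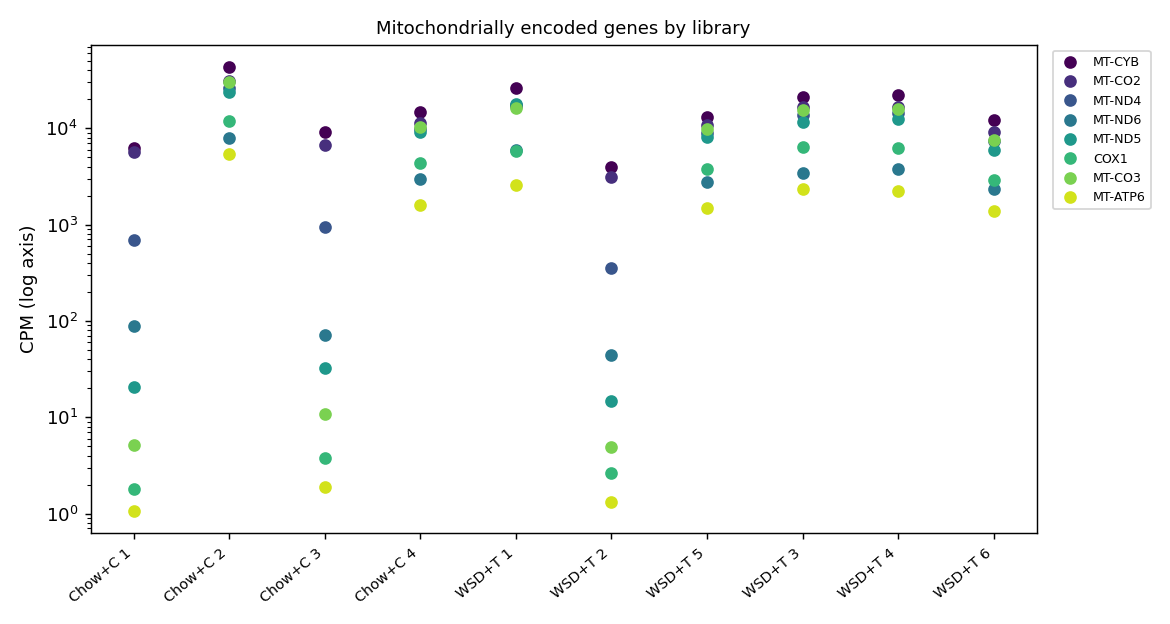
Level of 8 mitochondrially encoded genes in each of the 10 libraries, in TMM-scaled CPM on a logarithmic axis, 1 point per gene and library. MT-CO3, COX1 and MT-ATP6 lie far lower in Chow+C 1, Chow+C 3 and WSD+T 2 than in the other libraries, while MT-CYB and MT-CO2 do not.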

How the data were processed

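The authors deposited 1 table of unnormalized counts, with a column for each library. Trimmomatic and STAR are the tools named, per the submitters' processing notes; genome build and annotation: not given in the sources used here. Libraries carry no strand information. Antisense or overlapping genes therefore cannot be told apart, and near-identical gene copies are uncertain. Of 32386 genes 21539 had a symbol in the table and 1383 received one from a reference table; 4 classes of reads outside genes were left out. The 95% intervals given for log2 fold changes come from the edgeR fit and include the spread between animals.

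In R 4.3.3 with edgeR 4.0.16, filterByExpr (minimum count 10, total 15) kept 15019 genes, scaled by TMM. All 19 libraries entered 1 robust quasi-likelihood fit of 4 treatment groups, and a second fit in which WSD+T was divided by oocyte class. Tests were two-sided with p-values adjusted by Benjamini-Hochberg across all genes (threshold 0.05). DESeq2 1.42.0 and limma 3.58.1 were alternatives, and the scripts were tested on simulated data. CPM are TMM-scaled. Scores average the log2 CPM of the members of a list, with a prior count of 1. Any 2 of the 10 libraries correlated at 0.848 to 0.968 in log counts, and 0 pairs were identical. Common dispersion was 0.34 (biological coefficient of variation 0.583).

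Members and the 40 lists were chosen with earlier results of these data known. Named genes are the 12 higher and 12 lower of smallest p that have a symbol and average at least 1 on the log2 CPM scale, the 5 and 5 of the MI or MII comparison, the member of smallest p of each list, a panel of steroidogenic and leukocyte genes, and genes past the adjusted threshold in any fit of WSD+T against Chow+C; those called between oocyte classes are only counted, and a few genes the rule picked are not reported here. Other names (LIMS1, IFT172, IL18R1, COX6C, DECR1, SLC25A20, PPARGC1A, CPT1A, PRDX1, CAT, APOE, IER3, CCND2, CCNE1, CD14, VSIG4 and single mitochondrial genes) were chosen after their values were seen.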

Additional observations from a re-analysis of the deposited data

Results flagged for a closer look

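Of 232 groups of 4 or 6 libraries examined, 13 (5.6%) held a library far from the others of its group, where chance gives about 1 in 20. WSD+T 6 accounts for 8 of the 13. It was highest for HEBP1 (65.1 CPM, others 12.9 to 15.7), MGAT5B (5.79 CPM, others 1.51 to 2.02) and NPC2 (249 CPM, others 36.7 to 60.6), and lowest for ACVR2B, an activin receptor (3.57 CPM, others 4.70 to 5.48), and LHCGR (1.96 CPM, others 11.7 to 25.2). It was also highest in the list scores for cholesterol uptake, storage and efflux (7.53, others 6.47 to 6.75), lysosome (8.60, others 6.85 to 7.34) and endothelium markers (3.46, others -0.86 to 0.76).

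Among the other 5, SDC4 was highest in Chow+C 1 (19.7 CPM, others 14.8 to 15.3), EDN2 in Chow+C 2 (23.2 CPM, others 0.232 to 0.391) and AMHR2, the receptor of anti-Müllerian hormone, in WSD+T 3 (7.29 CPM, others 2.33 to 3.52). The score of mitochondrially encoded genes was lowest in WSD+T 2 (4.40, others 10.8 to 11.9), and that of oocyte markers was highest in WSD+T 1 (-0.049, others -3.80 to -3.35). The low mitochondrial score is not particular to WSD+T 2, since Chow+C 1 and Chow+C 3 were at 4.90 and 5.65.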

How the results depend on the processing

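No gene passed edgeR's adjusted threshold between WSD+T and Chow+C under any edgeR or limma setting; DESeq2 called 3. Genes at an unadjusted p under 0.05 (1014) numbered 564 by limma, 499 without the degenerating libraries, 213 without these and Chow+C 2, and 482 (without Chow+C 2) to 1720 (without Chow+C 1) when 1 library was left out. The MI or MII count (483) was 802 by DESeq2, 844 without WSD+C 4, 736 with the leukocyte score as a covariate and 198 (without Chow+C 2) to 1307 (without Chow+C 1), with 744 without Chow+C 4, 265 without WSD+T 2 and 210 without WSD+T 5. Genes in both (254) numbered 410 by DESeq2, 168 by limma, 426 without WSD+C 4, 510 with the covariate, and 88 (without WSD+T 5) to 837 (without Chow+C 1), with 440 without Chow+C 4 and 118 without WSD+T 2. Between oocyte classes DESeq2 called 92 and edgeR 22 without WSD+T 4, and 0 in the other fits that left out 1 library. Genes without overlap (111) numbered 750 without the degenerating libraries, 747 with MI or MII libraries alone, 1102 without the degenerating libraries and Chow+C 2, and 110 (without WSD+C 4) to 689 (without Chow+C 1) with 1 library left out, with 228, 176 and 370 without Chow+C 2, 3 and 4 and 273 and 187 without WSD+T 1 and 6, counts that grow as fewer libraries must agree. Beside these constructions the cause was not tested.

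Of 73 named genes 59 kept their direction in each of the 22 alternatives that gave them a value (20 for CNN1, 21 for TBXAS1). Many were named for their small p in the main fit, whose libraries the alternatives share, so this count is a description. Without the degenerating libraries, and with MI or MII libraries alone, these turned: ND2 (-0.58 and -0.58), EDN2 (-3.59 and -3.58), NRP2 (-0.045 and -0.043), CTSS (-0.31), CD53 (-0.29), PECAM1 (-0.60), PTPRC (-0.91 and -0.90) and HSD3B2 (-0.074 and -0.072). With Chow+C 2 left out too, CTSS was -0.51, CD53 -0.52, PECAM1 -0.87, PTPRC -1.19 and UPK3B 0.25. With the covariate STAR was 0.44, CYP19A1 0.12, LHCGR 0.52, CYP11A1 0.18, PECAM1 -0.38 and PTPRC -0.35. STAR was 0.17 by limma. With 1 library left out, STAR ranged from -0.37 to 0.34, CYP19A1 from -0.80 to 0.44, LHCGR from -0.52 to 0.21, NOBOX from -3.46 to 0.26, UPK3B from -2.38 to 0.059 and ND2 from -0.12 to 2.54. The positive ends of NOBOX and UPK3B are without Chow+C 2, those of CYP19A1 and LHCGR without Chow+C 3 and that of STAR without Chow+C 1; the negative end of ND2 is without WSD+T 3. No paired analysis was possible because the replicate numbers follow sample order and do not pair animals. No alternative varied the depth.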

Other observations

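Oocyte transcripts were present in a few of the granulosa libraries. ZP2, a protein of the zona pellucida, reached 3.08 CPM in the library Chow+C 4, 2.05 CPM in the library WSD+T 1, and 0 to 0.0257 CPM in the other 8. NLRP5, a maternal-effect gene, was at 1.84 and 1.85 CPM in the same libraries and at 0 to 0.0267 CPM in the others. BMP15, a growth factor secreted by the oocyte, reached 3.61 and 0.318 CPM there, and at most 0.0264 CPM in the others. Both libraries came with an MII oocyte, but the oocyte marker score was also low in 2 MII libraries (-3.15 in Chow+T 2 and -3.89 in Chow+T 3, against 0.51 in Chow+C 4) and high in an MI library (0.80 in WSD+C 3). The largest summed level of the markers among the 10 was 21.4 CPM, in the MI library Chow+C 2, where most of it was NOBOX at 11.8 CPM. The 3 WSD+T libraries with a degenerating oocyte held 0 counts of ZP2 and NLRP5. Outside the 10 the degenerating class was mixed. WSD+C 4 had the highest oocyte marker score of the series, 3.93, with a summed level of 239 CPM. WSD+C 5 and Chow+T 1 were at -3.83 and -4.15.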
